A study of Mus musculus with 7 samples.

Results

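The stefins and cystatins of MS-1 endothelial cells are described here across LPL overexpression and control libraries. They are 7 genes of 49585 gene rows, taken by symbol: the stefin A genes Stfa1, Stfa2, Stfa3 and Stfa2l1, the stefin B gene Cstb, and the cystatin genes Cst3 and Cst6. They were chosen by their levels and differences in this same comparison, so their differences between groups are given as a description, without a test. Of the 7, 5 passed the filter on low counts, and Stfa1 and Stfa2l1 did not.

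The study sequenced total RNA of MS-1, a mouse endothelial line from pancreatic islets, to ask what overexpression of lipoprotein lipase does to these cells. The LPL overexpression group has 4 libraries and the control group, of genotype WT, has 3. All cells were grown in DMEM, and libraries were made with a TruSeq stranded total-RNA kit from RNA extracted with a Rneasy Plus kit. The labels do not give the species of the LPL sequence, the vector or whether the line is 1 clone, and no vector-only control was analysed here. They also do not say whether libraries of a group came from separate cultures, so adjusted p-values reflect the library-to-library spread alone, which may be technical.

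Cystatins are tight, reversible inhibitors of papain-like cysteine proteases, above all the lysosomal cathepsins. Stefins, the type 1 cystatins, lack a signal peptide and act inside the cell, where they meet cathepsins that leak from lysosomes. Type 2 cystatins, such as cystatin C (Cst3) and cystatin E/M (Cst6), carry a signal peptide and are secreted. Mice hold a cluster of closely related stefin A genes where humans have a single gene, and these are best known from neutrophils and from stratified epithelia rather than from endothelium.

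Between 24328418 and 29210847 reads per LPL overexpression library, and between 26514501 and 28104402 per control library, were counted in the sense orientation. Lpl, the targeted gene, stood at 140, 136, 138 and 146 TPM (a transcript level scaled to gene length and library size) in LPL overexpression replicates 1 to 4, against 0.0116, 0.0112 and 0.0713 TPM in control replicates 1 to 3. Of 13639 genes tested with edgeR, 5888 (43.2%) changed at an adjusted p under 0.05, 2988 (21.9%) of them higher and 2900 (21.3%) lower, and the median log2 fold change was 0.00. Higher genes made up 50.7% of those changed, and 61.3% when log2 TPM values were tested with limma instead, which moved the median by 0.03. In counts scaled to library size, the groups did not overlap for 6081 (44.6%) of the 13639 genes tested. Endothelial markers were present in both groups, with 11 of 12 tested, 2 higher and 7 lower, and a summed level of 3967 to 4068 TPM in LPL overexpression and 4420 to 4426 TPM in control libraries. Markers of pigment cells separated the groups: 10 of 10 rose, their sum was 2136 to 2255 TPM in LPL overexpression against 2.73 to 2.78 TPM in control libraries, and 6 of them (Tyrp1, Dct, Mlana, Tyr, Sox10 and Oca2) had 0 reads in every control library. Their part in the stefin and cystatin values was not tested. In bulk RNA, fewer cells of a type and less RNA per cell cannot be told apart.

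The stefin A genes sit together on mouse chromosome 16 and are similar enough that reads can be ambiguous between copies. The files hold 11 stefin A rows there, the 4 named Stfa genes and 7 further copies, spread over 335 kb of mm10 from base 36119946 to base 36455392. The 250 bases before the annotated start of each Stfa gene are shown because these 4 copies differ so much in level while their upstream sequences are alike. They come from RefSeq (GRCm38.p6, the same assembly as mm10), 5′ to 3′ on the strand of the gene. Capitals mark the letters TTTAAA, which a search for short core promoter motifs found. The windows are chr16:36455393-36455642 (minus strand) for Stfa3, chr16:36408364-36408613 (minus) for Stfa2, chr16:36276898-36277147 (plus) for Stfa1 and chr16:36156561-36156810 (plus) for Stfa2l1.
Stfa3: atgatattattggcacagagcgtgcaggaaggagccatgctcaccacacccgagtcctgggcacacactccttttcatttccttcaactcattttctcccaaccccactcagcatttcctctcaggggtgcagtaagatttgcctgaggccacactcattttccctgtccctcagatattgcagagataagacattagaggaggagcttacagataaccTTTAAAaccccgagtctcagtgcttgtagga
Stfa2: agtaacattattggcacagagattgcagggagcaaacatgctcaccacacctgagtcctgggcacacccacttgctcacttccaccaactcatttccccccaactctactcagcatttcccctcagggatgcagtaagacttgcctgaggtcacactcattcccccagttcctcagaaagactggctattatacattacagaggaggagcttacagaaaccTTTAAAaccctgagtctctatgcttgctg
Stfa1: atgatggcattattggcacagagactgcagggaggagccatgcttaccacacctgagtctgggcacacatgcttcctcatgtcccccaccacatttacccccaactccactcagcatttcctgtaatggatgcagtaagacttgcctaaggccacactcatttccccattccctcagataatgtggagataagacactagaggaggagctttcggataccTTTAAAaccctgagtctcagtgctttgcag
Stfa2l1: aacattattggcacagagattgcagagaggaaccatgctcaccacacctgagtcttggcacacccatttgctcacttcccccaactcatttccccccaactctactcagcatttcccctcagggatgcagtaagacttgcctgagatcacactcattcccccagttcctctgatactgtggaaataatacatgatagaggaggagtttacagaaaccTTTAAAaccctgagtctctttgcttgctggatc

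In a global alignment the Stfa3 window was 80.4% identical to that of Stfa2, 83.5% to that of Stfa1 and 80.5% to that of Stfa2l1. The window of Cst3, a gene on another chromosome, was 42.2% identical to that of Stfa3 by the same alignment. TTTAAA, which reads the same on both strands, began 31 bases before the start in Stfa3, 29 in Stfa2, 30 in Stfa1 and 33 in Stfa2l1. It occurs in 12.1% of 32851 RefSeq promoter windows (all windows cut to the same length). The presence of the motif therefore did not separate Stfa3 and Stfa2, which had at least 354 reads in each control library, from Stfa1 and Stfa2l1, which had almost none. Of the further copies, Gm5416 and Gm5483, with reads in every library, also held TTTAAA, beginning 77 and 29 bases before the start. So did BC100530 and Csta1, with 0 reads in every library, beginning 9 and 230 bases before the start. These windows were 58.6% (Gm5416), 68.7% (Gm5483), 72.3% (BC100530) and 39.0% (Csta1) identical to that of Stfa3. The window of 2010005H15Rik, which had reads in every library, lacked TTTAAA and was 45.3% identical to that of Stfa3. It lies at chr16:36221312-36221561, far from the first coding bases of that gene at chr16:36253046-36253105. The 4 Stfa windows lie close to their first coding bases, so the 2010005H15Rik window is not a like counterpart of them. The motif GATAAG, searched on both strands, was found in Stfa3 and Stfa1, beginning 65 and 63 bases before the start, and in 6.55% of all windows. TATAAA (12.4% of all windows), TGANTCA (an AP-1-type motif, 6.75%) and CACGTG (an E-box, 6.02%) were not among the letters of the 4 Stfa windows. CCAAT (33.8% of all windows) and GGAA (93.4%) were found in all 4, and CATGTG (12.3%) in Stfa1 alone. No entry was used for Cstb or Cst6.

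The first 60 coding bases show how far the copies can be told apart by reads. They come from the GENCODE vM21 transcripts on GRCm38, and capitals mark differences from Stfa3. The windows are chr16:36455305-36455364 (minus strand) for Stfa3, chr16:36408274-36408333 (minus) for Stfa2 and chr16:36156837-36156896 (plus) for Stfa2l1.
Stfa3: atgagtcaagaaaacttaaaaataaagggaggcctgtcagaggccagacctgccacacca
Stfa2: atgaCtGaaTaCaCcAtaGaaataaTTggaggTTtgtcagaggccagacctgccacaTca
Stfa2l1: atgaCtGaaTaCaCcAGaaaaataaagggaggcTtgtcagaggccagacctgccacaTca

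Stfa2 differed from Stfa3 at 12 of these 60 bases and Stfa2l1 at 9, whereas Stfa2 and Stfa2l1 differed from each other at 5. Over the coding sequence, 312 bases long in all 3 genes, Stfa3 was 81.1% identical to Stfa2 and 81.7% to Stfa2l1, and Stfa2 was 96.5% identical to Stfa2l1. Stfa1, annotated with a longer coding sequence of 387 bases, was 62.3% identical to Stfa3. Cstb, Cst3 and Cst6 were 55.5%, 47.7% and 46.6% identical to Stfa3. Ctla2a and Ctla2b, inhibitors of another family, were 48.8% and 52.0% identical to Stfa3 by the same alignment. The Cst3 and Cst6 values therefore do not show relatedness.

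Shared stretches bear on how well a row can be read. No stretch of 50 bases of Stfa3 occurred in a transcript of another gene. For Stfa2, 15.9% of its 50-base stretches occurred in another gene's transcript, 5.79% of its 75-base stretches and 0% of its 100-base stretches, with Stfa2l1 among the genes that share them. The shares at 50 bases were 25.4% for Stfa1 and 24.6% for Stfa2l1, and 0% for Cstb, Cst3 and Cst6. The sources used here give neither the read length nor the handling of multiply aligned reads, so levels of Stfa2, Stfa1 and Stfa2l1 are uncertain. Only exact matches between annotated transcripts were counted, so these shares do not set the size of that uncertainty. Stfa3 had no exact stretch of 50 bases in common with them, which does not show that all of its reads were unambiguous.

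Stfa3, a stefin A that inhibits cysteine cathepsins in the cytosol, was below Cst3 and Cstb in LPL overexpression cells and the highest of the 7 genes in control cells. The gene (ENSMUSG00000054905.2) lies on the minus strand at chr16:36450537-36455392 and has 3 exons. It had 585, 631, 614 and 580 reads in LPL overexpression replicates 1 to 4, against 2906, 3346 and 3187 in control replicates 1 to 3. In TPM it stood at 192, 172, 197 and 169 in LPL overexpression libraries, against 859, 957 and 964 in control libraries. Every LPL overexpression library lay far below every control library, and the spread within a group was small beside the gap. Groups without overlap, whatever the gap, made up 44.6% of all tested genes in counts scaled to library size. The means were 182 ± 14.2 TPM (SD, n = 4) in LPL overexpression and 927 ± 58.7 TPM (SD, n = 3) in control, and the fitted log2 fold change was -2.38 (SE 0.05), a level 5.19-fold higher in control. Ranked by mean TPM among the tested genes, Stfa3 stood at place 935 in LPL overexpression and at place 125 in control libraries.

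Stfa2, the next most abundant stefin A, was well below Stfa3 in both groups. It (ENSMUSG00000022902.7) lies on the minus strand at chr16:36403946-36408363. Its reads numbered 53, 47, 58 and 41 in LPL overexpression libraries, against 354, 434 and 371 in control libraries. Its levels were 16.9, 12.5, 18.1 and 11.6 TPM in LPL overexpression libraries and 102, 121 and 109 TPM in control libraries. The groups did not overlap here either, as for 44.6% of all tested genes in counts scaled to library size. The mean was 14.8 ± 3.23 TPM (SD, n = 4) in LPL overexpression and 111 ± 9.59 TPM (SD, n = 3) in control, a fitted log2 fold change of -2.95 (SE 0.10), or 7.71-fold higher in control. This was the lowest log2 fold change of all 13639 genes tested, and that of Stfa3 was the second lowest.

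Stfa1 and Stfa2l1, which encode further stefin A proteins, were near 0 in every library. Stfa1 (ENSMUSG00000071562.5), on the plus strand at chr16:36277148-36285371, had 0, 0, 2 and 0 reads in LPL overexpression libraries, against 1, 0 and 2 in control libraries. Over the summed reads its level in LPL overexpression was 0.516 times that in control, with an exact (Clopper-Pearson) 95% counting interval of 0.0431 to 4.50. Stfa2l1 (ENSMUSG00000059657.4), on the plus strand at chr16:36156811-36161948, had 0, 1, 0 and 0 reads in LPL overexpression libraries, against 1, 0 and 0 in control libraries, a ratio of 0.774 with an interval of 0.00986 to 60.7. These intervals cover counting error only, since without molecular identifiers PCR copies of 1 molecule are counted apart. No difference was detectable for either gene at this depth, in either direction.

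**Figure D1:**
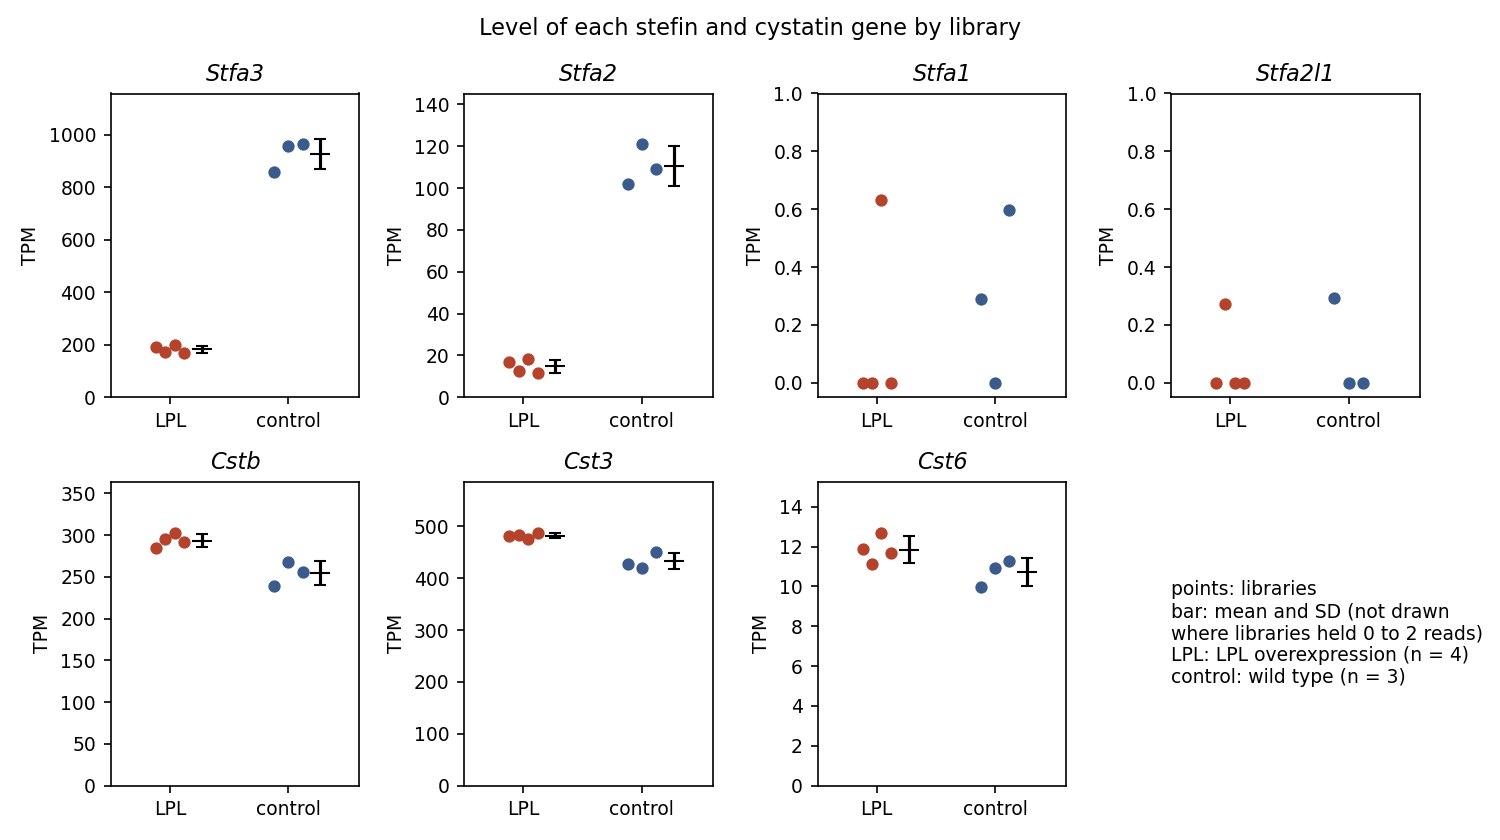
Level in TPM (vertical axes, starting at or just below 0, with a different scale for each gene) of the 7 stefin and cystatin genes in 4 LPL overexpression and 3 control libraries; points are libraries and bars the mean and SD. Stfa3 sits between 169 and 197 TPM in LPL overexpression libraries and between 859 and 964 TPM in control libraries, while Cstb and Cst3 lie slightly higher in LPL overexpression libraries.

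Cstb encodes stefin B, a widely expressed cytosolic and nuclear inhibitor of cathepsins whose human gene is mutated in a progressive myoclonus epilepsy. It (ENSMUSG00000005054.6) lies on the plus strand at chr10:78425670-78427619. Its levels were 284, 295, 303 and 292 TPM in LPL overexpression libraries and 239, 268 and 256 TPM in control libraries. All 4 LPL overexpression libraries lay above the 3 controls, by a narrow margin. Groups without overlap were common, at 44.6% of all tested genes in counts scaled to library size. The means were 294 ± 7.82 TPM (SD, n = 4) in LPL overexpression and 254 ± 14.3 TPM (SD, n = 3) in control, with a fitted log2 fold change of 0.18 (SE 0.04). The fitted difference thus had the opposite sign to those of Stfa3 and Stfa2, which also encode stefins.

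Cst3 encodes cystatin C, the main secreted cystatin of body fluids. It (ENSMUSG00000027447.6) lies on the minus strand at chr2:148871722-148875692 and stood at 482, 484, 475 and 488 TPM in LPL overexpression libraries, against 428, 420 and 450 TPM in control libraries. The groups did not overlap, which also held for 44.6% of all tested genes in counts scaled to library size. The means were 482 ± 5.33 TPM (SD, n = 4) in LPL overexpression and 433 ± 15.3 TPM (SD, n = 3) in control, with a fitted log2 fold change of 0.13 (SE 0.03).

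Cst6 encodes cystatin E/M, a secreted inhibitor of legumain and cathepsins that is best known from skin. It (ENSMUSG00000024846.5) lies on the minus strand at chr19:5344705-5349574. Its levels were 11.9, 11.1, 12.7 and 11.7 TPM in LPL overexpression libraries and 9.96, 10.9 and 11.3 TPM in control libraries. The groups overlapped. The means were 11.8 ± 0.686 TPM (SD, n = 4) in LPL overexpression and 10.7 ± 0.667 TPM (SD, n = 3) in control, and the fitted log2 fold change was 0.12 (SE 0.06).

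In LPL overexpression libraries the order of levels was Cst3, Cstb, Stfa3, then Stfa2 and Cst6, then Stfa1 and Stfa2l1. Stfa2 and Cst6 overlapped there, as the lowest Stfa2 library had 11.6 TPM and the highest Cst6 library 12.7 TPM. In control libraries the order was Stfa3, Cst3, Cstb, Stfa2, Cst6, Stfa1 and Stfa2l1, and of the neighbours in that order only Stfa1 and Stfa2l1 overlapped. In control libraries the Stfa3 mean was 2.14 times that of Cst3. In LPL overexpression libraries Cst3 and Cstb both lay above Stfa3, and the Cstb mean was 1.61 times the Stfa3 mean. Stefin A was thus the most abundant of these transcripts in control cells, and cystatin C in LPL overexpression cells.

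Beyond the named Stfa genes, 3 other stefin A rows of the cluster had enough reads to test, and all 3 fell. They carry predicted or clone names in the files (Gm5416, Gm5483 and 2010005H15Rik), for which RefSeq has the symbols Csta3, Cstdc4 and Csta2. The list held 11 symbols matched in the files, 7 of them in the cluster, of which 3 were tested, 0 were higher and 3 lower, and their median log2 fold change was -1.64. Over all tested genes 21.3% were lower and the median was 0.00. The other 8 symbols had 0 to 2 reads in every library. BC100530, BC117090 and Csta1 of the cluster had none, and Gm4758 had 0, 0, 0 and 1 reads in LPL overexpression and 0, 2 and 1 in control libraries.

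Gm5416, on the plus strand at chr16:36210403-36217788, had 11, 26, 9 and 18 reads in LPL overexpression and 45, 57 and 54 in control libraries. Its levels were 5.06, 9.91, 4.05 and 7.34 TPM in LPL overexpression and 18.6, 22.9 and 22.9 TPM in control libraries, so the groups did not overlap. That also held for 44.6% of all tested genes in counts scaled to library size. The means were 6.59 ± 2.61 TPM (SD, n = 4) in LPL overexpression and 21.5 ± 2.44 TPM (SD, n = 3) in control, and the fitted log2 difference was -1.69 (SE 0.22; edgeR adjusted p = 5.81e-09).

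2010005H15Rik, on the plus strand at chr16:36221468-36257444, had 38, 40, 36 and 38 reads in LPL overexpression and 107, 118 and 114 in control libraries. In TPM it was 8.04, 7.01, 7.45 and 7.13 in LPL overexpression and 20.4, 21.8 and 22.2 in control libraries. The groups were again without overlap, like 44.6% of all tested genes in counts scaled to library size. The log2 fold change was -1.56 (SE 0.14; edgeR adjusted p = 5.07e-14).

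Gm5483, on the plus strand at chr16:36184212-36188111, was the lowest of the 3. It had 7, 10, 5 and 8 reads in LPL overexpression and 18, 24 and 29 in control libraries. Its level was 2.23 ± 0.462 TPM (SD, n = 4) in LPL overexpression and 6.95 ± 1.72 TPM (SD, n = 3) in control. The log2 fold change was -1.64 (SE 0.30; edgeR adjusted p = 1.12e-05).

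The first 60 coding bases of these 3 copies are shown because they bear on which rows can be told apart. Capitals mark differences from 2010005H15Rik, on GENCODE vM21 transcripts (GRCm38), all on the plus strand at chr16:36253046-36253105 (2010005H15Rik), chr16:36184260-36184319 (Gm5483) and chr16:36210403-36210462 (Gm5416).
2010005H15Rik: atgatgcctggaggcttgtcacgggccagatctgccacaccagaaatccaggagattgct
Gm5483: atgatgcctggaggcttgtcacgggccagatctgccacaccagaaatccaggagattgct
Gm5416: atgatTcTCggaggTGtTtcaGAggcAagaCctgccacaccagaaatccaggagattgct

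Gm5483 and 2010005H15Rik were the same at all 60 bases and 96.9% identical over their coding sequences, and Gm5416 differed from 2010005H15Rik at 10 of 60. Of the 50-base stretches of Gm5483, 35.6% occurred in another gene's transcript, and of those of 2010005H15Rik 22.0%, shared with each other. These 2 rows cannot be read as fully separate measurements. Gm5416, like Stfa3, shared no 50-base stretch with a transcript of another gene.

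**Figure D2:**
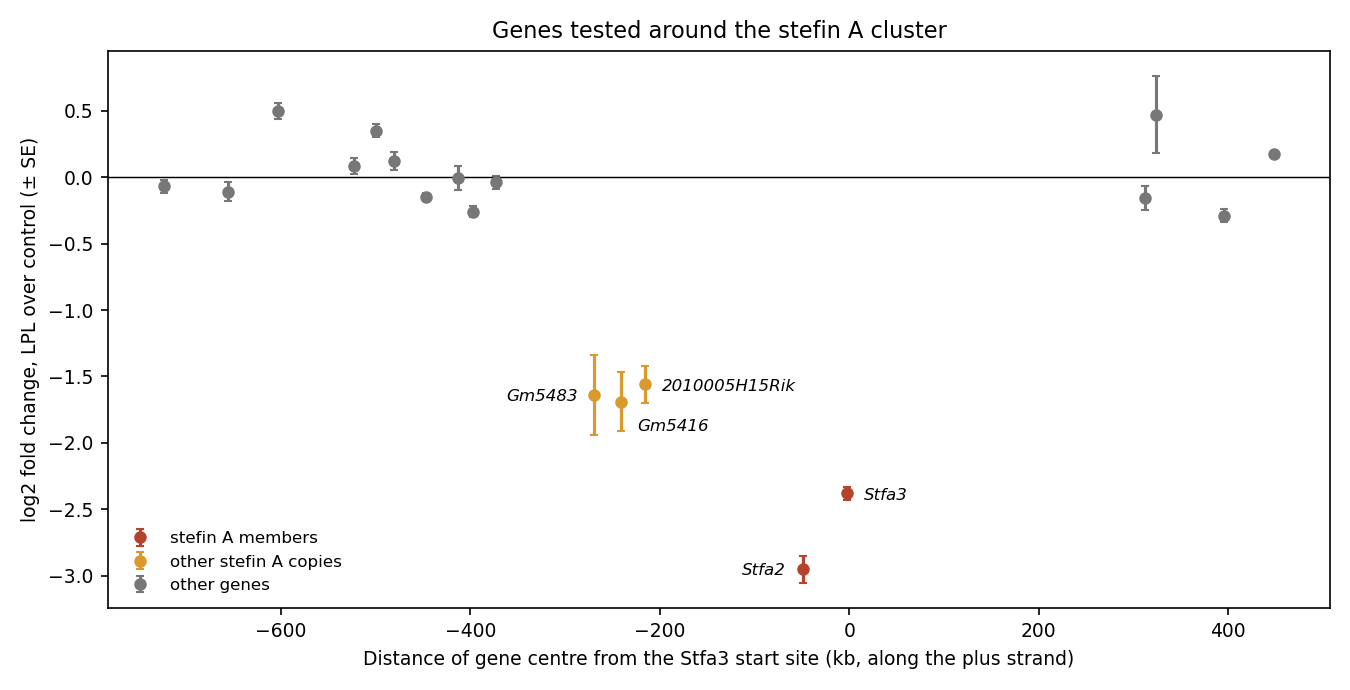
Log2 fold change of LPL overexpression over control (vertical axis, with SE bars) against the distance of each tested gene's centre from the Stfa3 start site (horizontal axis, kb along the plus strand). The 2 stefin A members and the 3 other copies lie between -2.95 and -1.56, whereas the 14 other genes lie between -0.29 and 0.50.

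Among genes around the cluster, the 3 copies were among 70 of 13639 tested genes (0.513%) with an adjusted p under 0.05 and a log2 fold change of -1 or below, and no other gene tested around the cluster was. Within 500 kb of the outermost Stfa genes, 17 other genes were tested, 3 of them the copies above. Of the 14 that remain, 3 rose, 3 fell and 8 did not pass the threshold, a share changed that is near the 43.2% of all tested genes, and their median log2 fold change was -0.03. The strongest riser was Parp14, an interferon-inducible ADP-ribosyltransferase, at 7.07 ± 0.377 TPM (SD, n = 4) in LPL overexpression and 4.90 ± 0.122 TPM (SD, n = 3) in control (log2 fold change 0.50, SE 0.06, edgeR adjusted p = 2.54e-10). Fam162a, a mitochondrial protein gene, fell to 293 ± 8.60 TPM in LPL overexpression, against 346 ± 10.9 TPM in control (log2 fold change -0.26, SE 0.04, edgeR adjusted p = 3.05e-08). Gm15564, which overlaps Parp9 and Kpna1 on the opposite strand, was at 335 ± 29.0 TPM in LPL overexpression and 302 ± 13.9 TPM in control, and did not pass the threshold (edgeR adjusted p = 0.208). Nor did Ccdc58, the nearest of these genes on that side of the cluster, at 63.7 ± 2.05 TPM in LPL overexpression and 64.3 ± 1.41 TPM in control (edgeR adjusted p = 0.555).

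Summed over the 11 rows, stefin A reads numbered 694, 755, 724 and 686 in LPL overexpression libraries and 3432, 3981 and 3758 in control libraries. The sum does not depend on how reads were divided among these rows. It would still miss multiply aligned reads that were dropped or counted in other genes, and their handling is not known. As a level, the 11 rows summed to 214 ± 15.2 TPM (SD, n = 4) in LPL overexpression and 1088 ± 71.2 TPM (SD, n = 3) in control, 5.09 times as much in control. Fitted as 1 row, a choice made after seeing the data, the sum had a log2 fold change of -2.37 (SE 0.05), beside -2.38 for Stfa3 alone.

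In the reads as counted, the make-up of the cluster shifted among its minor copies and not in its main one. Stfa3 gave 83.6% to 84.8% of the cluster's reads in LPL overexpression libraries and 84.0% to 84.8% in control libraries. Stfa2 gave 5.98% to 8.01% in LPL overexpression and 9.87% to 10.9% in control libraries, without overlap. 2010005H15Rik gave 4.97% to 5.54% in LPL overexpression and 2.96% to 3.12% in control libraries, also without overlap. Gm5416 gave 1.24% to 3.44% in LPL overexpression and 1.31% to 1.44% in control libraries, which overlapped. Gm5483 gave 0.691% to 1.32% in LPL overexpression and 0.524% to 0.772% in control libraries, which overlapped as well. These shares follow from the fold changes above and are a description. As the handling of multiply aligned reads is not known, the shares of Stfa2, 2010005H15Rik and Gm5483, which hold stretches in common with other genes, are uncertain.

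Genes with profiles most like those of Stfa3 and Stfa2 were sought over the 7 libraries, by the root mean square difference of log2 CPM (counts scaled to library size) centred on each gene's mean, among 11042 genes with at least 2 CPM on average. For Stfa3 the nearest was Stfa2, at 0.30, followed by Plet1 at 0.36, Lhx9 at 0.37, 2010005H15Rik at 0.43 and Chil5 at 0.47. For Stfa2 the nearest was Stfa3, at 0.30, followed by Plet1 and Lhx9 at 0.65 each, 2010005H15Rik at 0.71 and Chil5 at 0.75. Plet1, a gene of epithelial and placental progenitors, was at 3.80 ± 0.168 TPM in LPL overexpression and 12.3 ± 0.329 TPM in control. Lhx9, a homeobox transcription factor gene, was at 0.728 ± 0.0388 TPM in LPL overexpression and 2.33 ± 0.181 TPM in control, and Chil5, a chitinase-like gene, at 34.3 ± 2.72 TPM in LPL overexpression and 92.7 ± 3.12 TPM in control. This ranking reflects the group difference that chose the members, and it has no test.

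Markers of the other cells in which stefin A is known were looked at beside these values. Of 16 neutrophil and myeloid markers, 4 were tested, 1 higher and 2 lower, and their summed level was 275 to 300 TPM in LPL overexpression and 235 to 250 TPM in control libraries, most of it Cd68. Cd68 was the 1 that rose, to 261 ± 11.1 TPM in LPL overexpression, against 194 ± 8.67 TPM in control (log2 fold change 0.40, SE 0.03, edgeR adjusted p = 4.30e-14). Ly6g, a neutrophil surface marker, fell to 25.0 ± 0.638 TPM in LPL overexpression, against 45.8 ± 5.41 TPM in control (log2 fold change -0.90, SE 0.08, edgeR adjusted p = 2.70e-14). Lcn2, a neutrophil granule protein gene also found in epithelia, fell too, with 7, 11, 3 and 3 reads in LPL overexpression and 21, 19 and 22 in control libraries (-1.76, SE 0.34, edgeR adjusted p = 2.35e-05). Ltf, another neutrophil granule protein gene, did not pass the threshold (log2 fold change 0.25, SE 0.36, edgeR adjusted p = 0.608). The neutrophil genes Mpo, S100a9, Csf3r and Retnlg had 0 reads in all 7 libraries. Of 14 keratinocyte markers, 3 were tested, 0 higher and 2 lower, and their sum was 227 to 266 TPM in LPL overexpression and 326 to 372 TPM in control libraries, most of it Sprr1a. Ivl, the cornified envelope protein involucrin, fell to 3.86 ± 0.359 TPM in LPL overexpression, against 5.91 ± 0.723 TPM in control (log2 fold change -0.64, SE 0.13, edgeR adjusted p = 7.60e-05). The keratin gene Krt10 was at 2.09 ± 0.482 TPM in LPL overexpression and 2.17 ± 0.285 TPM in control, a difference that did not pass the threshold, and Krt5, Krt14 and Krt1 had 0 reads throughout. These markers were named after their values were seen, and their part in the stefin A values was not tested. The stefin A sum in LPL overexpression was 0.196 times that in control. The endothelial marker sum was 0.909 times, the keratinocyte marker sum 0.701 times and the neutrophil and myeloid marker sum 1.19 times that in control. The pigment cell marker sum was 801 times that in control. Since the keratinocyte sum was mostly Sprr1a and the neutrophil and myeloid sum mostly Cd68, neither stands for its whole list.

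The proteases that cystatins inhibit came next. Of 20 cysteine cathepsins and legumain, 8 were tested, 3 rose, 1 fell and 4 did not pass the threshold, and the share changed was near the 43.2% of all tested genes. Their median log2 fold change was 0.04, the same with Ctsc at its bound below. Ctsl, the endopeptidase cathepsin L, rose to 437 ± 10.3 TPM (SD, n = 4) in LPL overexpression, against 385 ± 9.36 TPM (SD, n = 3) in control (log2 fold change 0.16, SE 0.03, edgeR adjusted p = 2.02e-06). Cathepsins B and Z, of similar abundance, did not pass the threshold: Ctsb stood at 273 ± 4.90 TPM in LPL overexpression and 260 ± 5.18 TPM in control (adjusted p = 0.152 by edgeR), and Ctsz at 288 ± 7.66 TPM in LPL overexpression and 274 ± 6.22 TPM in control (adjusted p = 0.214). Ctsh, the aminopeptidase cathepsin H, fell to 45.1 ± 0.676 TPM in LPL overexpression, against 52.6 ± 2.03 TPM in control (log2 fold change -0.25, SE 0.04, edgeR adjusted p = 6.21e-08).

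Ctso, cathepsin O, rose to 7.57 ± 0.429 TPM in LPL overexpression, against 5.65 ± 0.371 TPM in control (log2 fold change 0.39, SE 0.07, edgeR adjusted p = 1.10e-05). Ctsc, the dipeptidyl peptidase that activates granule serine proteases in leukocytes, was low in LPL overexpression and not detected in control. It had 26, 55, 40 and 29 reads in LPL overexpression and 0 in each control library, at least 38.7-fold higher in LPL overexpression against a floor of 3 reads over the control group. Summed over all 20 genes, the level was 1239 to 1295 TPM in LPL overexpression and 1184 to 1198 TPM in control libraries.

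**Figure D3:**
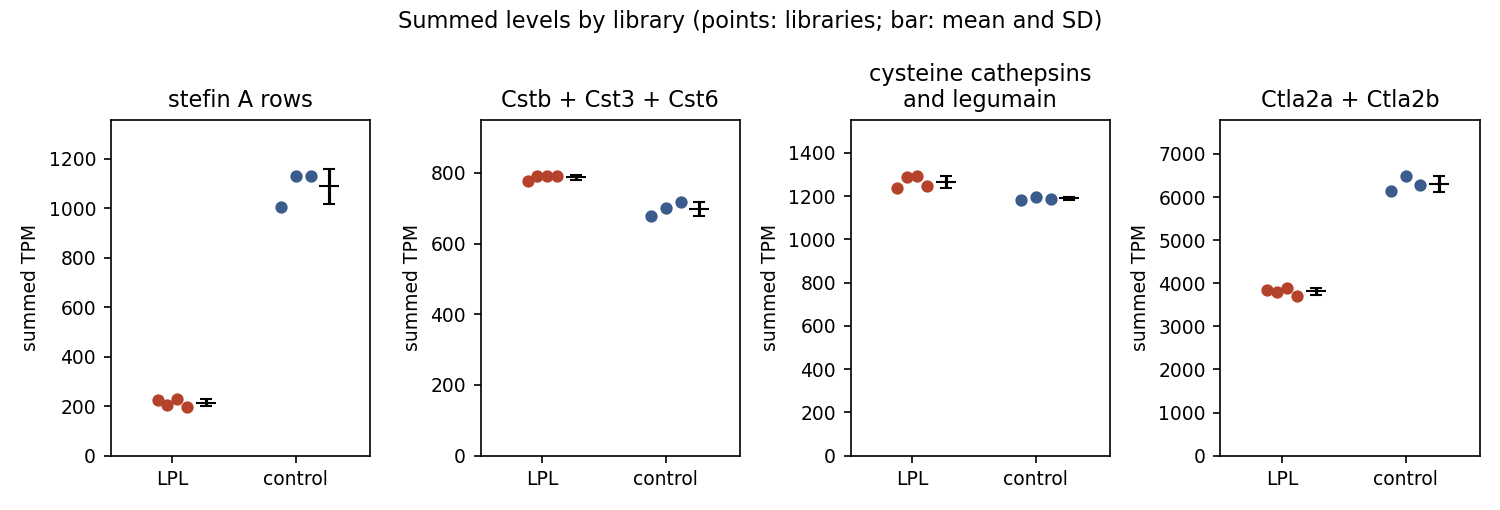
Summed TPM (vertical axes, from 0) of the stefin A rows, of Cstb, Cst3 and Cst6, of cysteine cathepsins with legumain, and of Ctla2a with Ctla2b, by library; points are libraries and bars the mean and SD, for 4 LPL overexpression and 3 control libraries. The stefin A sum is 198 to 229 in LPL overexpression and 1006 to 1131 in control libraries, while the cathepsin sum is 1239 to 1295 in LPL overexpression and 1184 to 1198 in control libraries.

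Inhibitor and target levels can be set side by side in TPM, as a description. The 3 genes Cstb, Cst3 and Cst6 summed to 788 ± 6.94 TPM (SD, n = 4) in LPL overexpression and 698 ± 19.7 TPM (SD, n = 3) in control. All 7 stefins and cystatins summed to 985 ± 15.5 TPM in LPL overexpression and 1735 ± 83.9 TPM in control. The cathepsins and legumain summed to 1267 ± 27.9 TPM in LPL overexpression and 1189 ± 7.60 TPM in control. Transcripts of the 7 inhibitors thus lay below those of the listed proteases in LPL overexpression and above them in control libraries. This order depends on which inhibitors are summed. Ctla2a and Ctla2b, inhibitors of another family described below, summed to 3811 ± 81.1 TPM in LPL overexpression and 6307 ± 179 TPM in control. That pair alone lay above the listed proteases in both groups. TPM are transcript levels and say nothing of protein amount or activity.

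Other cystatins added little. Of 9 further type 2 cystatin symbols in the files, 0 passed the filter. In alternative fits that let some through, 0 of 1 changed with DESeq2 and 0 of 3 with edgeR and no filter on low counts. Of 9 genes of related fold (kininogens, fetuins and others), 1 was tested. That gene, Lxn, encodes latexin, an inhibitor of carboxypeptidases with a cystatin-like fold. It rose to 63.6 ± 4.98 TPM (SD, n = 4) in LPL overexpression, against 33.7 ± 0.832 TPM (SD, n = 3) in control (log2 fold change 0.89, SE 0.06, edgeR adjusted p = 7.59e-19).

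Of 10 symbols for lysosomal proteases of other classes, 7 were tested, 3 rose, 2 fell and 2 did not pass the threshold, beside 21.9% higher and 21.3% lower over all tested genes. Their median log2 fold change was 0.04. Only 1 fell when LPL overexpression replicate 1, 2 or 3 or control replicate 2 or 3 was left out, and with upper-quartile factors, DESeq2, no filter or limma on log2 TPM. Ctsd, the aspartic protease cathepsin D, rose to 315 ± 2.53 TPM in LPL overexpression, against 265 ± 4.70 TPM in control (log2 fold change 0.22, SE 0.03). Dpp7, a dipeptidyl peptidase, rose to 39.5 ± 2.00 TPM in LPL overexpression, against 30.0 ± 0.205 TPM in control (log2 fold change 0.37, SE 0.04). Prcp, a prolyl carboxypeptidase, fell to 20.5 ± 0.903 TPM in LPL overexpression, against 25.8 ± 1.06 TPM in control (log2 fold change -0.36, SE 0.04). Scpep1, a serine carboxypeptidase, rose by 0.14 on the log2 scale (SE 0.03), and Tpp1, a tripeptidyl peptidase, differed by 0.04 and did not pass the threshold.

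The calpains, cytosolic calcium-dependent cysteine proteases, differed by small amounts. Of 16 symbols for calpains and calpastatin, 8 were tested, 2 rose, 5 fell and 1 did not pass the threshold, where 21.9% of all tested genes rose and 21.3% fell. Their median log2 fold change was -0.12. Under upper-quartile scaling 3 rose and 4 fell. Capn5 fell to 21.7 ± 1.15 TPM in LPL overexpression, against 28.8 ± 0.479 TPM in control (log2 fold change -0.43, SE 0.04), and Capn2, the catalytic subunit of m-calpain, to 288 ± 2.81 TPM in LPL overexpression, against 326 ± 1.90 TPM in control (-0.21, SE 0.02). Capn15 had a log2 fold change of -0.18 (SE 0.04). Cast, the calpain inhibitor calpastatin, fell to 89.9 ± 1.10 TPM in LPL overexpression, against 97.9 ± 0.924 TPM in control (-0.15, SE 0.03), while Capns1, the shared small subunit, rose to 405 ± 7.02 TPM in LPL overexpression, against 378 ± 3.00 TPM in control (0.07, SE 0.02, edgeR adjusted p = 0.0141). The Capns1 call was lost without control replicate 1 (edgeR adjusted p = 0.0541) or without control replicate 2 (edgeR adjusted p = 0.0682).

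**Figure D4:**
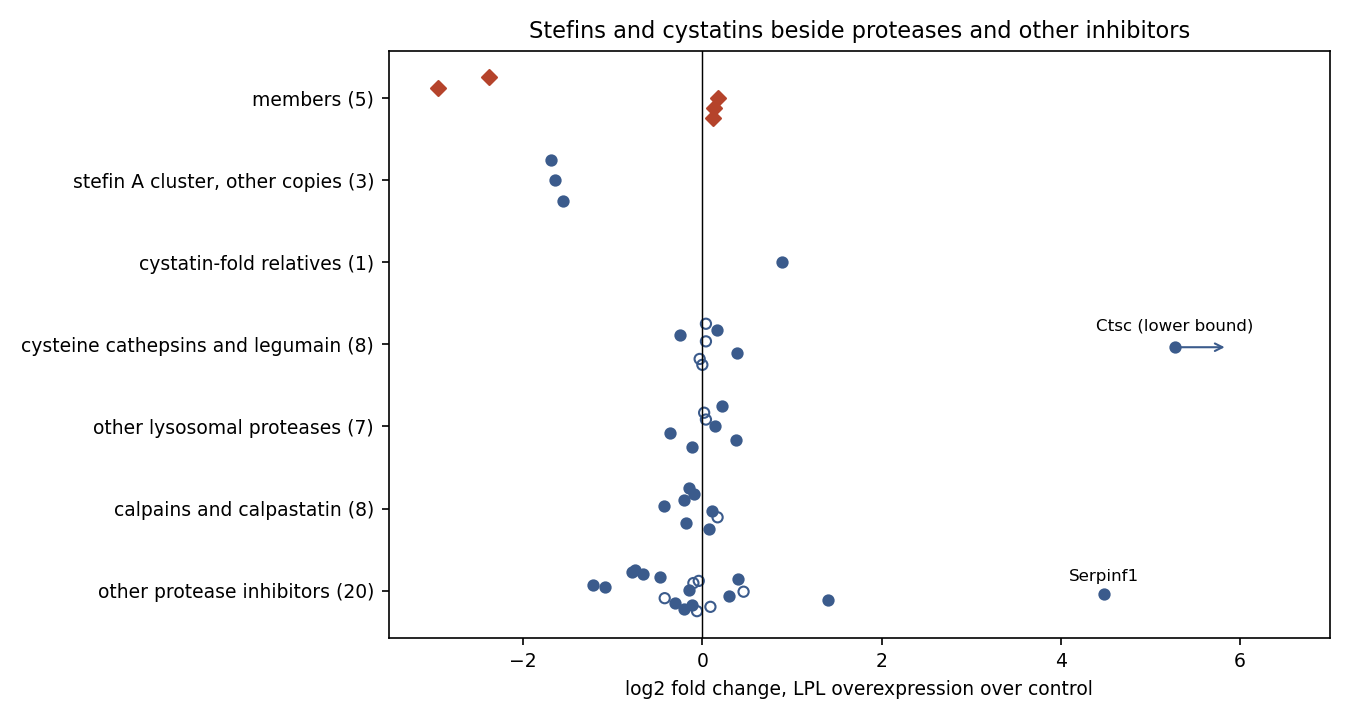
Log2 fold change of LPL overexpression over control (horizontal axis) for the tested stefin and cystatin genes (diamonds, no test) and 6 lists of related genes, with the number tested in brackets; filled circles passed an edgeR adjusted p under 0.05 and open circles did not. Ctsc, with 0 control reads, is drawn at its lower bound of 38.7-fold, and Serpinf1, with 3 control reads, at its ratio of 22.4.

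Inhibitors of other families included members that rose and members that fell. Of 37 symbols, 20 were tested, 4 rose, 10 fell and 6 did not pass the threshold, beside 21.9% higher and 21.3% lower over all tested genes, and their median log2 fold change was -0.14. With limma on log2 TPM, 4 rose and 7 fell. The most abundant was Ctla2a, which resembles the propeptide of a cathepsin and inhibits cathepsin L-like proteases. It fell to 3579 ± 82.2 TPM (SD, n = 4) in LPL overexpression, against 5916 ± 160 TPM (SD, n = 3) in control (log2 fold change -0.75, SE 0.03, edgeR adjusted p = 1.30e-30). Its close copy Ctla2b, named after its values were seen, stood at 232 ± 4.75 TPM in LPL overexpression and 390 ± 21.2 TPM in control. The copies cannot be separated well, since 86.1% of the 50-base stretches of Ctla2b occurred in another gene's transcript, and their sum was 3703 to 3896 TPM in LPL overexpression and 6144 to 6498 TPM in control libraries.

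Of the serpins, Serpinb9b, an intracellular serpin, fell to 12.2 ± 1.11 TPM in LPL overexpression, against 27.9 ± 2.37 TPM in control (log2 fold change -1.22, SE 0.06, edgeR adjusted p = 1.32e-21). Serpinb10 fell to 1.44 ± 0.213 TPM in LPL overexpression, against 3.02 ± 0.149 TPM in control (-1.09, SE 0.15, edgeR adjusted p = 1.56e-08). Serpinh1, a collagen chaperone, rose to 950 ± 21.3 TPM in LPL overexpression, against 760 ± 20.7 TPM in control (0.30, SE 0.03). Serpinf1, a secreted anti-angiogenic factor, had 22, 20, 17 and 28 reads in LPL overexpression and 0, 2 and 1 in control libraries, a ratio of 22.4 with an exact 95% counting interval of 7.43 to 111. The fitted log2 fold change was 4.29, and it was 5.12 without control replicate 2 and 1.92 when reads of both orientations were counted.

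Serpina3g, an interferon-inducible serpin, belongs like Serpinb9b to a mouse family of close copies, so its counts are uncertain. It stood at 8.62 ± 3.45 TPM in LPL overexpression and 3.23 ± 0.548 TPM in control, a log2 fold change of 1.40 (SE 0.40, edgeR adjusted p = 0.0398). Without LPL overexpression replicate 4 the log2 fold change was 1.08 (edgeR adjusted p = 1.63e-11). Without any 1 of the other 6 libraries it was at least 1.26 and the call was lost (adjusted p between 0.0516 and 0.127 by edgeR). Timp2, a metalloprotease inhibitor, fell to 328 ± 16.9 TPM in LPL overexpression, against 350 ± 4.03 TPM in control (-0.12, SE 0.03, edgeR adjusted p = 0.000430).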

How the data were processed

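RNA of MS-1 cells was sequenced in 4 LPL overexpression and 3 control libraries, grouped by sample title. Reads were aligned with STAR to mm10, per the submitters' processing notes. The sources used here give no versions, annotation release or read length. The deposited counts are unnormalized whole reads per gene and orientation, per the file headers, and reverse-orientation counts (97.0% to 97.1% of oriented reads) were used. Levels are the TPM values that the authors deposited for that orientation.

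Genes were tested with the edgeR 4.0.16 quasi-likelihood F test (R 4.3.3) with TMM, filterByExpr, robust dispersion and the group as only term. Benjamini-Hochberg adjustment ran over 13639 genes, threshold 0.05. The SE divides the log2 fold change by the root of F, and is too small where reads are few. A group at 0 reads got a floor of 3 counts over the group. The 7 members, 7 gene lists, the 500 kb window and 4 marker lists were chosen with earlier results of these data known. All members are named; each list gives every tested gene if 5 or fewer, otherwise the 4 largest changes past the threshold and the 3 highest mean TPM. Symbols were matched through RefSeq synonyms. Alternatives were edgeR RLE and upper-quartile factors, DESeq2 1.42.0, other filters, both orientations, limma 3.58.1 on log2 TPM with pseudocounts of 0.5 and 1, a replicate block and leaving out each library. Identity is matches over alignment columns (Biopython 1.88). Gene coordinates are those of the files.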

Additional observations from a re-analysis of the deposited data

Results flagged for a closer look

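Serpina3g stood at 13.8 TPM in LPL overexpression replicate 4, while the other 3 LPL overexpression libraries held 6.59 to 7.24 TPM, so 1 library lay far from the rest of its group. Among 38 groups of values looked at in this way, chance flags about 1 in 20.

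Reads on the strand opposite to Cst3, which no comparison used, summed to 13 over the LPL overexpression libraries (2, 2, 7 and 2), against 1, 0 and 1 in the control libraries. They are few beside the 4513 to 5473 sense reads of Cst3 in LPL overexpression libraries. The difference was not tested.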

How the results depend on the processing

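Over 16 alternatives, Stfa3 ranged from -2.43 to -2.34 in log2 fold change, Stfa2 from -3.06 to -2.84, Cstb from 0.13 to 0.22, Cst3 from 0.11 to 0.17 and Cst6 from 0.06 to 0.16. None of the 31 other genes named by rule reversed, and the 5 members tested kept their sign. The count of other stefin A copies that fell went to 1 of 1 tested with a filter of at least 2 CPM on average, against 3 of 3, since only that gene passed it. Genes changed over all settings numbered 4677 (DESeq2) to 5939 (upper-quartile factors). Timp2 was not past the threshold on log2 TPM (limma adjusted p = 0.0644 and 0.0655 at pseudocounts of 0.5 and 1), nor Serpina3g with no filter (edgeR adjusted p = 0.0734). Ctsb passed with upper-quartile factors (edgeR adjusted p = 0.0301) and on log2 TPM (limma adjusted p = 0.0304 and 0.0306), and Gm15564 with no filter (edgeR adjusted p = 0.00267), without LPL overexpression replicate 2 (0.0414) or without replicate 3 (0.0294). The causes were not tested. Rows with under 30 reads, such as Stfa1, Stfa2l1 and Gm5483 in LPL overexpression libraries, are limited by depth.

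Replicate numbers shared by the groups did not pair the libraries: deviations of same-numbered libraries correlated at -0.02, -0.04 and 0.02 across genes, and 0 of 3 LPL overexpression libraries correlated best with the control of its number. With the replicate block on replicates 1 to 3, 5737 genes changed, against 5716 in the same libraries without it. Under that block the log2 fold changes were -2.34 for Stfa3, -2.85 for Stfa2, 0.19 for Cstb and 0.13 for both Cst3 and Cst6. The other stefin A copies gave 3 of 3 lower.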
